A study of Homo sapiens with 4 samples.

Results

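The cyclin D1 gene, CCND1, and the DNA up to 400 kb on each side of it were examined for open chromatin in 786-O cells. The window runs from 69241156 to 70054474 on chromosome 11 (GRCh38), and the RefSeq span of CCND1 in it runs from 69641156 to 69654474. Peaks from 4 deposited ATAC-seq peak lists that overlapped the window were merged wherever they shared at least 1 bp, which gave 64 regions of the 138467 in the whole series. ATAC-seq marks open DNA by where a transposase inserts sequencing adapters. 786-O is a human clear cell renal carcinoma line that lacks functional VHL.

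The 2 WT control libraries came from cells that express Cas9 and have a wild-type genotype. The 2 DEK KO libraries came from Cas9-expressing cells that received guide RNAs against DEK, a DNA-binding chromatin protein with histone chaperone activity. All 4 libraries therefore share the Cas9 background, which the labels describe as a cell clone, and the knockout cells were sorted singly to found clones. Separate clones or cultures behind a group's 2 libraries are not stated in the labels. The libraries that the p-values compare may thus be only technical repeats, and the spread between them only technical.

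Cyclin D1 binds and activates the kinases CDK4 and CDK6, which phosphorylate the retinoblastoma protein and let cells pass from G1 into DNA replication. In renal carcinoma cells without VHL, hypoxia-inducible factor is always active and CCND1 is one of its known targets there, through enhancers far from the gene. The window also holds MYEOV, named for its overexpression in myeloma, LTO1, which helps pass iron-sulfur clusters to a ribosome recycling factor, the fibroblast growth factor genes FGF19, FGF4 and FGF3, and the lower-coordinate part of ANO1, a calcium-activated chloride channel. CCND1 is transcribed toward higher coordinates, so lower coordinates are called upstream here.

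Promoter sequences are shown for LTO1, whose start lay under a peak in every library, and for FGF3, ANO1 and the predicted gene LOC124902704 just past CCND1, whose starts lay under none, so that all 4 promoters of the window with a table entry can be compared. Each is the 250 bases before the RefSeq start (GRCh38.p14), 5′ to 3′ on the strand of the gene, at chr11:69675354-69675603 (minus strand), chr11:69819417-69819666 (minus strand), chr11:69985657-69985906 (plus strand) and chr11:69657916-69658165 (minus strand), in the order below. Capitals mark GGGCGG, the core of a GC box, and CCAAT, the core of a CCAAT box, each on either strand.
LTO1: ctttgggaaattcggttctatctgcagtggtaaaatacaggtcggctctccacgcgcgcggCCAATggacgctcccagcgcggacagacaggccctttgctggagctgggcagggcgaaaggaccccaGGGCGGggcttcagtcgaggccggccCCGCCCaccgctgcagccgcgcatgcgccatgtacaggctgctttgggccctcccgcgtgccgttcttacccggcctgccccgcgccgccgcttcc
FGF3: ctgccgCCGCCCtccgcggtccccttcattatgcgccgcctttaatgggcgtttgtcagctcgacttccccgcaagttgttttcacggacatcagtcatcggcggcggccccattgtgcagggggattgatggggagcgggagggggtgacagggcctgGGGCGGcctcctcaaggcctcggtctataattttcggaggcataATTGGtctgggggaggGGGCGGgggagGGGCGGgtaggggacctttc
ANO1: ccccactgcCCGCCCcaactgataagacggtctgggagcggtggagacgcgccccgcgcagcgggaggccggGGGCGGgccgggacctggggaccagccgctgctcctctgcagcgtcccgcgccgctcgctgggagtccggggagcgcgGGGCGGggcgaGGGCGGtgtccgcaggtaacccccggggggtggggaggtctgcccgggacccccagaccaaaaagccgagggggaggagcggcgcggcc
LOC124902704: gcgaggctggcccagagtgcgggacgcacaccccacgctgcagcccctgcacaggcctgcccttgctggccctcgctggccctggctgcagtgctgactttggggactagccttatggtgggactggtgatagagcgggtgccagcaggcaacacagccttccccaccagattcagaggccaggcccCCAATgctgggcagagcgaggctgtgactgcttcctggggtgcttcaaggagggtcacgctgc
All 4 promoters were rich in G and C, with 68.4% in LTO1, 64.4% in FGF3, 78% in ANO1 and 66.4% in LOC124902704, against a median of 62.4% over 15810 protein-coding promoters of the same length. They held 26, 19, 30 and 8 CG dinucleotides in the same order (median 17). GGGCGG occurred 2 times in LTO1, 4 times each in FGF3 and ANO1 and 0 times in LOC124902704, and at least once in 56.0% of all such promoters. CCAAT occurred once each in LTO1, FGF3 and LOC124902704, and in 34.4% of all. TATAAA, the AP-1 motif TGACTCA, and ACGTG, 1 form of the core that hypoxia-inducible factor binds, occurred in none of the 4, against 9.25%, 3.18% and 20.8% of all promoters. Another form of that core, GCGTG, was not searched for, and the LTO1 and LOC124902704 sequences hold it on either strand. All 5 motifs were searched on both strands, and none contains another. The 3 promoters under no peak thus held both more and fewer GGGCGG matches than the 1 under a peak. The table held 4 of the 8 protein-coding genes of the window, and CCND1, MYEOV, FGF19 and FGF4 had no entry.

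No library had a peak over the start of CCND1. The nearest regions ended 1723 bp before it and began 2953 bp after it, and the 4.675 kb between them held no peak in any list. The peak numbers in the lists run on without a break across this gap, so each library's peak before the start and its next one after it are neighbours in the list. Among 15812 protein-coding genes with a start in the RefSeq promoter table, 56.6% had a start under a region called in all 4 lists and 39.7% had none under any region, so a start with no peak was common among them. CCND1 is not in that table, and its start here is the lower end of its RefSeq span. Table starts can lie inside a span, as at ANO1, so the comparison is a rough one. The planned test of a region over the CCND1 start could not be made, and the nearest region was described in its place.

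That nearest region, upstream of CCND1 (chromosome 11, 69638643 to 69639433), was called in every library. Peaks were ranked within each list by −log10 p (column 8 of the deposited lists), and a percentile of 100 marks the strongest peak of a list. The percentiles were 56.8 and 64.7 in WT control replicates 1 and 2 and 68.2 and 76.3 in DEK KO replicates 1 and 2. Both knockout values thus lay above both control values, by 11.5 percentile points on average (60.7 ± 5.62 against 72.2 ± 5.71, SD, n = 2 each, exact permutation p = 0.333, two-sided). With 2 libraries against 2, 0.333 is the smallest p this test can give, so this test cannot pass 0.05 in this design, whatever the size of a difference. When the lists were cut to equal length, the difference at this region was 8.01 points and the groups overlapped.

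Inside CCND1, 3 regions were called. The first lay 2.95 kb after the start (69644109 to 69644681), with percentiles of 58.4 and 57.6 in the controls and 4.45 and 40.1 in the knockouts. The knockout libraries were lower than both controls and far apart from each other. Without DEK KO replicate 1 the difference shrank from -35.7 to -17.9 points. The deposited fold, the pileup over the background at the summit of the peak as the authors' caller wrote it, was 4.53 and 4.05 in the control lists and 2.04 and 3.21 in the knockout lists.

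The second region (69646830 to 69647257), 5.67 kb after the start, was called in the 2 DEK KO lists but in no control list. Its percentiles of 15.1 and 13.0 were low in both. The third lay over the end of the gene (69654164 to 69656236) and was called in all 4 lists at 87.4, 77.5, 83.8 and 87.7 in the order of control and knockout replicates. It was the broadest of the 3, at 2073 bp, and the knockout values spanned those of control replicate 1, so that the groups overlapped.

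**Figure D1:**
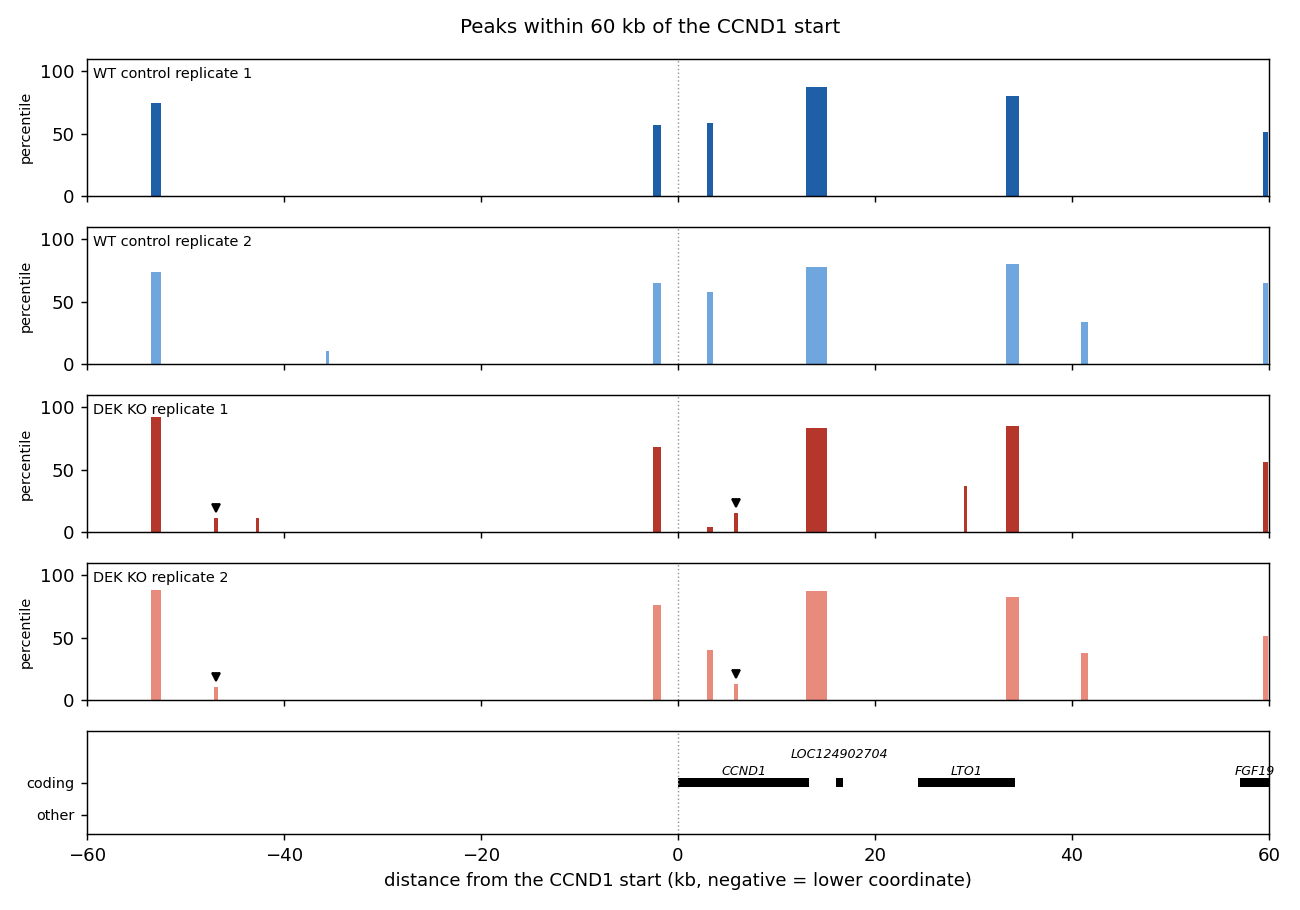
Peaks within 60 kb of the CCND1 start (dotted line, 0 kb). Each bar spans a merged region, its height is the percentile of −log10 p of that library's strongest peak in it, and triangles mark regions found in the 2 knockout lists alone. No bar crosses the start in any library, the bar 2.95 kb after it is lowest in DEK KO replicate 1, and the bar at the end of CCND1 is at 77.5 or above in all 4.

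If the lists follow the formulas of MACS2, fold and −log10 p together fix the pileup at the summit of a peak, that is, how many reads or fragments overlap it, and the background it was tested against. Solving both for every peak gave a pileup within 0.01 of a whole number in 100% of peaks of all 4 lists. The most common solved background of a list was taken as the caller's constant background. It was 2.157 and 2.389 in the controls and 1.916 and 1.897 in the knockouts. In that caller it grows with depth, so local background is given as a multiple of it. For regions called in all 4 lists the mean multiple had a median of 2.16 over the series and 2.81 over the 31 in the window.

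The regions in and around CCND1 lay on high background. At the end of CCND1 the multiple was 7.03 and 7.31 in the controls and 12.6 and 12.7 in the knockouts, a mean over the 4 lists of 9.91 that 2.88% of regions called in all 4 lists reached. The pileups there were 110 and 93 in the controls and 109 and 139 in the knockouts. This region's percentile by −log10 p averaged 84.1, whereas its percentile by fold averaged 41.4, so a large pileup stood on a raised background.

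The region 2.95 kb after the start had multiples of 5.78 and 5.99 in the controls and 7.15 and 7.84 in the knockouts, with pileups of 60 and 61 against 29 and 50. The region 1723 bp before the start had 4.36, 4.51, 4.72 and 4.77 in the order of control and knockout replicates. The unmarked start is thus flanked on both sides by peaks on more than 4 times the constant background. What reads cover the start itself was not analysed here.

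MYEOV and the 5 kb beyond it had the highest background in the window. Of the 4 regions there, all called in every list, those over the end of MYEOV (69296855 to 69297773) and just past it (69298256 to 69299109) had mean multiples of 20.4 each, which 0.101% and 0.0957% of regions of all 4 lists reached. At the end of MYEOV the multiples were 18.7 and 18.2 in the controls and 19.6 and 25.1 in the knockouts, and the pileups 108 and 106 against 87 and 142. Its percentiles by −log10 p, 51.5, 48.3, 42.9 and 67.0, were middling, while its fold stood at a mean percentile of 1.54.

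The region over the start of MYEOV (69293973 to 69294713) had percentiles of 56.1 and 31.8 in the controls and 9.46 and 24.6 in the knockouts. Both knockout values were lower, and the 2 controls differed by nearly as much as the groups did. By fold instead of −log10 p the difference shrank from -26.9 to -4.47 percentile points.

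**Figure D2:**
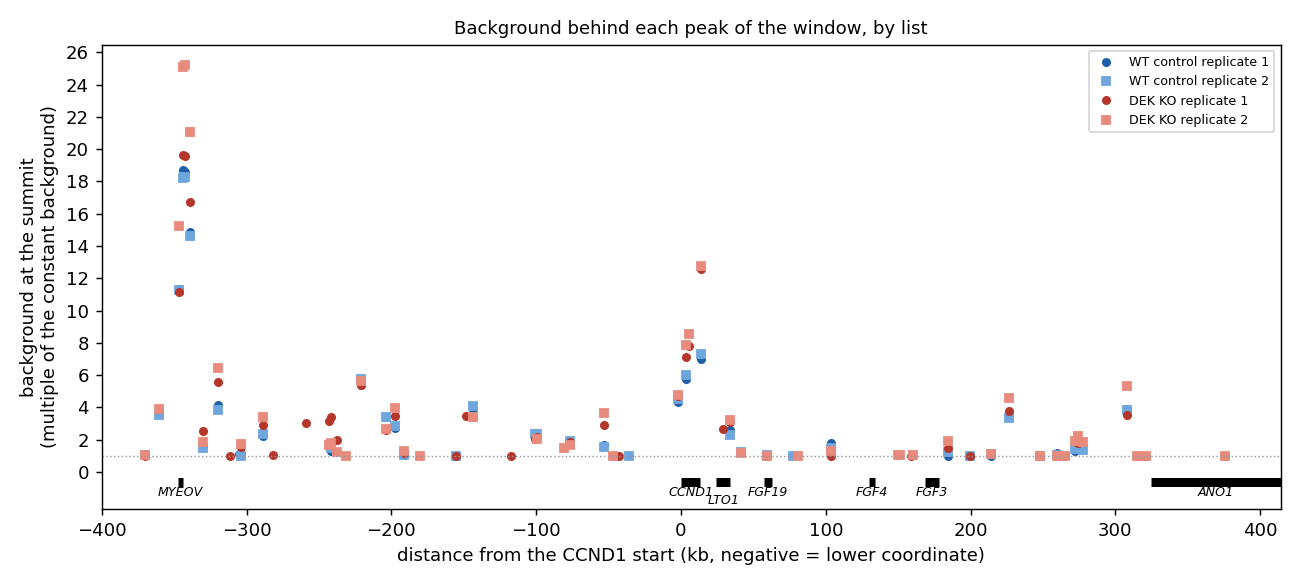
Background behind each peak of the window against its distance from the CCND1 start, as a multiple of the constant background of its list (dotted line at 1). Points are single peaks coloured by library. The points at and just past MYEOV reach 25.2 in DEK KO replicate 2, the end of CCND1 lies between 7.03 and 12.7, and most peaks downstream of LTO1 lie between 1 and 2.

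Over the 31 regions called in all 4 lists, the background multiple was higher in both knockouts than in both controls at 19 and lower in both at 7. Over the series the first pattern held for 30.4% of such regions and the second for 31.8%. At 1 of the 7 all lists sat at the constant background, and when multiples had to differ by more than 0.01 the counts were 19 and 6, against 29.7% and 23.3% over the series. The median ratio of knockout to control multiples was 1.21 in the window and 1.01 over the series. Neighbouring regions share background, so the 19 are not independent, and this count was chosen after its values were seen. The ratio was largest at the region 52.5 kb upstream of CCND1, at 2.04, and was 1.76 at the end of CCND1. Copy number of the locus was not measured, so its part in these values was not tested.

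Far from the gene, the strongest regions recurred in all 4 libraries. The 1 with the highest mean percentile lay 359 kb upstream (69280438 to 69281677), between genes, at 93.5, 94.9, 93.9 and 94.8 in the order of control and knockout replicates, with within-list ranks of 5864, 4655, 6265 and 5169. The next lay 226 kb downstream (69867205 to 69868210), between FGF3 and ANO1, at 90.8, 94.0, 94.0 and 96.2. The third lay 143 kb upstream (69497008 to 69497752), between the long noncoding RNA gene LINC01488 and CCND1, at 94.6 and 91.0 in the controls and 86.7 and 90.7 in the knockouts.

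These 3 distal regions ranked above every region inside CCND1, and their summits lay within 43, 71 and 102 bp of one another across the lists. The first overlapped between groups. The second lay slightly higher in both knockouts, by 2.71 points, but ranked by fold the groups overlapped and the difference was -1.44. The third lay lower in both knockouts, by -4.10 points, with control replicate 2 and knockout replicate 2 almost equal. Ranked by fold its difference was -3.48 and the groups overlapped.

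The other 5 of the 8 strongest regions outside CCND1 were also called in every list. A region 204 kb upstream inside LINC02952 (69436726 to 69437616) had percentiles of 88.1 and 85.8 in the controls and 78.6 and 84.3 in the knockouts, and a broad region 220 kb upstream (69419323 to 69421129) had 79.7 and 80.6 against 86.0 and 84.7. The groups did not overlap at either, the first being lower and the second higher in both knockouts. For the first, the difference of -5.53 points was -1.88 with overlapping groups when ranked by fold, and -2.69 without DEK KO replicate 1. The region 339 kb upstream, past MYEOV (69301493 to 69302269), had 77.8, 83.5, 80.8 and 85.4 and overlapped between groups.

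The LTO1 promoter shown above lay within the region 33.3 kb after the CCND1 start (69674429 to 69675739). Its percentiles were 80.0 and 79.7 in the controls and 84.8 and 82.8 in the knockouts, higher in both knockouts by 3.87 points. Ranked by fold, the difference turned to -3.80, so its direction depends on the column used. LTO1 was the only protein-coding gene of the 4 with a promoter entry whose start lay under a region. FGF3, FGF4 and ANO1 had no region within 1 kb of either end of their spans, and FGF19 had only 1 region inside it (69700536 to 69701056, at 51.4, 65.0, 56.5 and 51.9).

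The region 52.5 kb upstream of CCND1 (69587630 to 69588663) separated the groups most among the 8 strongest. Its percentiles were 74.8 and 73.4 in the controls and 92.4 and 88.6 in the knockouts, with summit pileups of 47 and 44 against 70 and 84 in lists whose constant background was lower. Both knockouts were higher by 16.4 points (exact permutation p = 0.333). Ranked by fold the difference was 1.89 points with overlapping groups. Its background multiple was also higher in the knockouts, at 2.93 and 3.64 against 1.67 and 1.55.

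**Figure D3:**
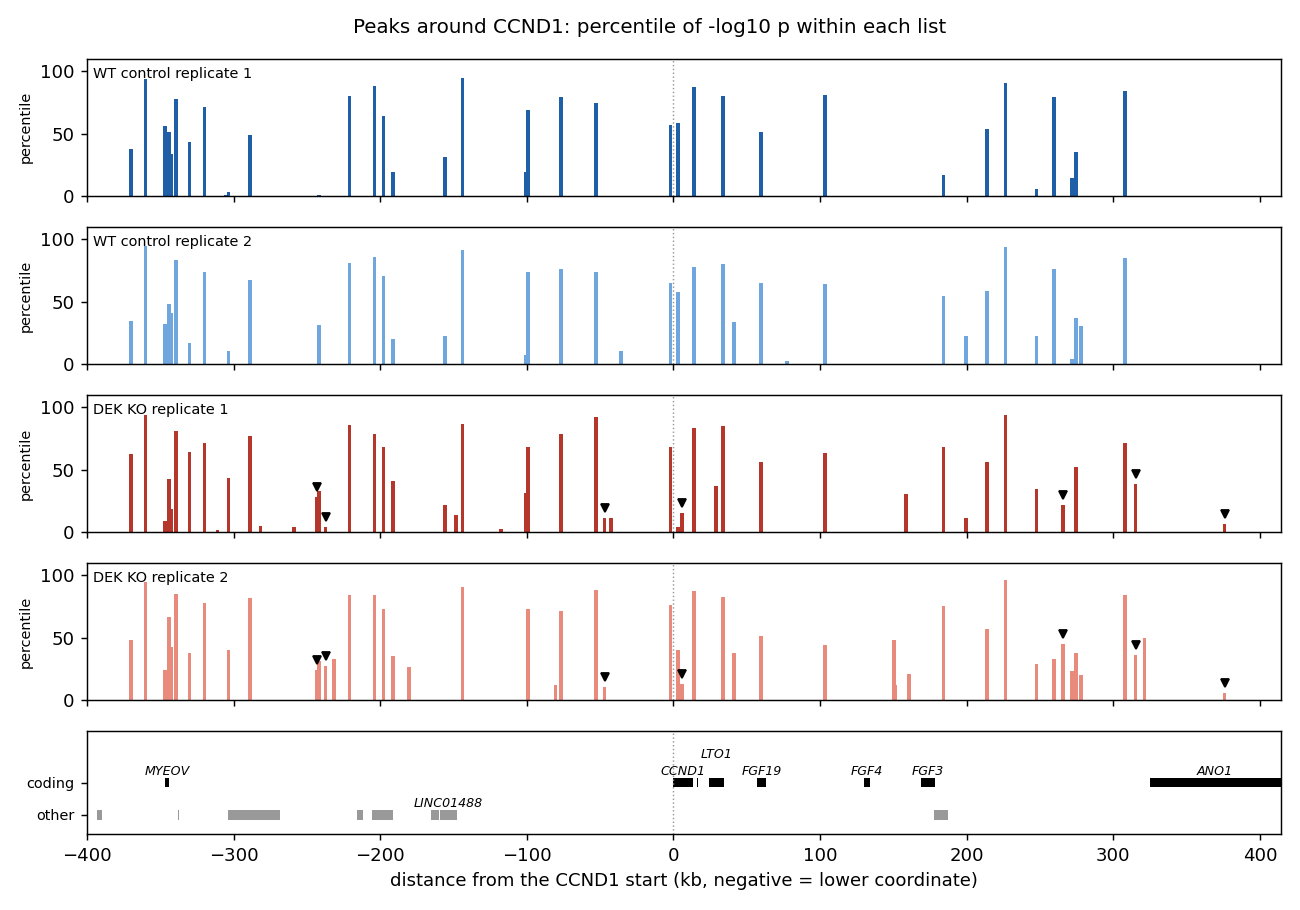
Peaks across the window, 1 panel per library, with genes below (black protein-coding, grey other). Bars give the percentile of −log10 p, drawn at least 2.5 kb wide for visibility, and triangles mark the 7 regions found in the 2 knockout lists alone. The tall bars 359 and 143 kb upstream and 226 kb downstream recur in all 4 libraries.

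Of the 64 regions, 31 (48.4%, 95% exact interval 35.8 to 61.3) were called in all 4 lists, against 45.3% of all regions. Another 4 were called in 3 lists, 4 in 1 control and 1 knockout list, and 18 (28.1%) in a single list, against 11.2%, 5.33% and 29.4% over the series. The remaining 7 (10.9%, 4.51 to 21.2) were called in the 2 knockout lists alone, here KO-only, against 6.26% over the series. None was called in both control lists alone, against 2.57% over the series, and 0 of 64 allows up to 5.60%. These intervals cover counting error only.

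The 7 KO-only regions were weak and scattered. Besides the 1 inside CCND1, 3 lay upstream and 3 downstream, and 1 of these was in the ANO1 span. Their summit pileups ran from 9 to 38, in lists whose lowest pileup was 7. The 2 highest lay 315 kb downstream (69956129 to 69956592), at 38.3 and 36.4 in knockout replicates 1 and 2, and 265 kb downstream (69906472 to 69906830), at 21.6 and 44.8.

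Upstream, the KO-only regions lay 242 kb (69397713 to 69398659, at 28.3 and 24.4), 237 kb (69403667 to 69404090, at 4.17 and 28.0) and 46.7 kb (69594017 to 69594414, at 11.9 and 10.5) from the start. The weakest was the last region of the window, 375 kb downstream inside ANO1 (70016651 to 70017429), at 7.03 and 6.22. The median of the lower of the 2 percentiles was 13.0 in the window and 21.6 over all KO-only regions. When only peaks with −log10 q of at least 5 were kept, KO-only regions numbered 3 of 49 (6.12%, against 6.54% over the series) and 1 WT-only region appeared. With lists of equal length they numbered 5 (8.62%, against 5.16%), and within 200 kb of CCND1 they numbered 2 (6.06%). The share in the window was thus not above that of the series among stronger peaks or within 200 kb. It was above it within 1000 kb (9.49%, against 6.26%) and with overlap of 50% of the shorter peak (8.96%, against 5.83%).

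Regions called in a single list were mostly knockout calls, 15 of 18 (83.3%), against 63.3% over the series. Knockout replicates 1 and 2 had 8 and 7 of them, and control replicates 1 and 2 had 1 and 2. The strongest, at a percentile of 48.6 in knockout replicate 2, lay 150 kb downstream, between FGF4 and FGF3.

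A region 259 kb downstream (69900504 to 69901227) was the strongest that any library lacked, and was chosen after its values were seen. It had percentiles of 78.9 and 76.1 in the controls, 33.3 in knockout replicate 2 and no peak in replicate 1. Its pileups were 46 and 41 in the controls and 16 in the 1 knockout list that called it.

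Among the 31 regions of all 4 lists, both knockout percentiles lay above both controls at 12 and below both at 5, against 31.1% and 19.2% over the series, that is 38.7% and 16.1% here. With lists of equal length the counts were 8 and 7 of 29, against 22.5% and 28.0% over the series. Ranked by fold they were 8 and 8 of 31, against 25.7% and 19.3%. The split of higher and lower therefore moved with list length and with the column ranked.

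The largest rise was at the region 184 kb downstream, in the noncoding gene LOC107984368 just past FGF3 (69824942 to 69825843). It had percentiles of 17.1 and 54.3 in the controls and 68.6 and 75.3 in the knockouts, a difference of 36.2 points in which the 2 controls were far apart. Next came the region 303 kb upstream in LOC105369370 (69337320 to 69338052), at 3.23 and 10.2 against 43.2 and 40.1, where both groups were tight. Its pileups were 10 and 11 in the controls, near the lowest called in those lists (8), and 21 and 23 in the knockouts. With −log10 q of at least 5 it was not called in every list. Its peaks were also wider in the knockouts, at 733 and 699 bp against 323 and 316 bp.

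A second region in LOC105369370, 288 kb upstream (69351313 to 69353341), had 49.1 and 67.6 in the controls and 77.2 and 81.9 in the knockouts. The first region of the window, 370 kb upstream (69270906 to 69271561), had 37.9 and 34.5 against 62.9 and 48.5. All 4 of these rises lay away from CCND1, 3 of them far upstream.

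The largest fall was the region inside CCND1 described above, at -35.7 points, followed by the start of MYEOV. The other falls were the 143-kb region described above, the LINC02952 region, and the region 103 kb downstream, between FGF19 and FGF4 (69744185 to 69745107), at 80.8 and 64.0 in the controls and 63.5 and 44.1 in the knockouts. At the last of these, control replicate 2 and knockout replicate 1 were almost equal, and ranked by fold the groups overlapped, with a difference of -16.9 points.

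**Figure D4:**
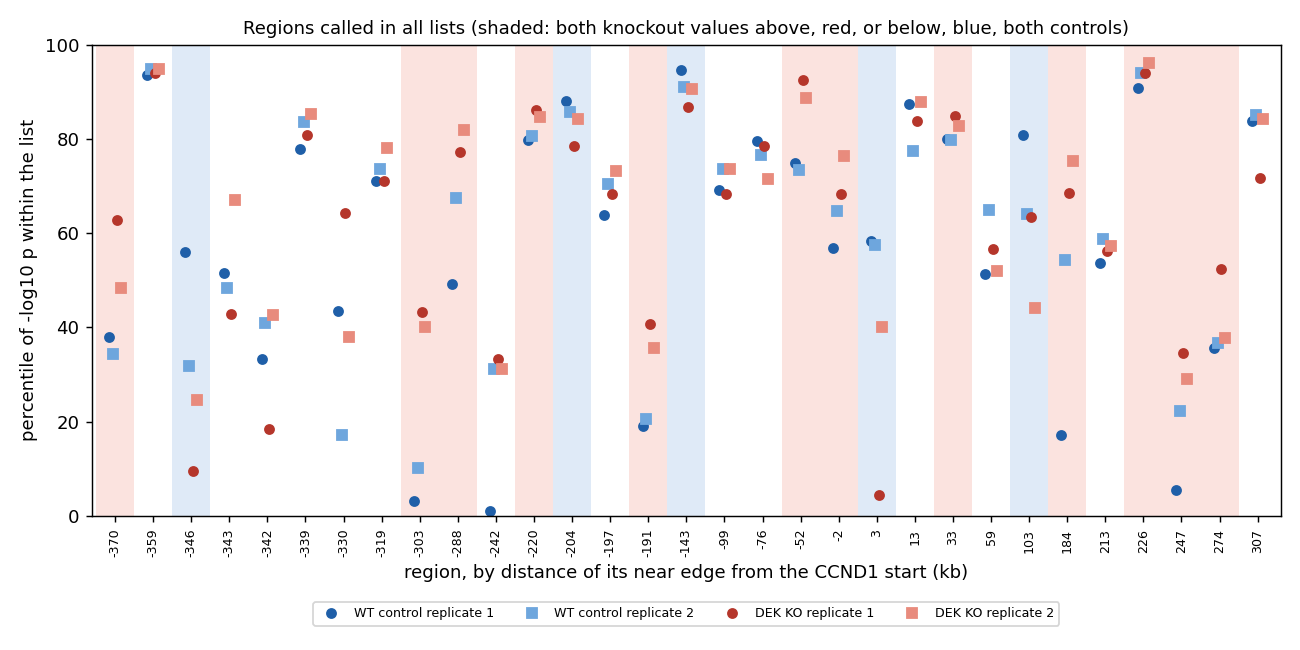
Percentile of −log10 p of the 31 regions called in all 4 lists, in order along the chromosome and named by the distance of their near edge from the CCND1 start. Circles are replicate 1 and squares replicate 2, blue control and red knockout. Both knockouts lie above both controls at the 12 columns shaded red and below them at the 5 shaded blue.

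Upstream of CCND1 lay 36 of the regions and downstream 25, with 20 and 9 called in all 4 lists. The longest stretch with none called in all 4 was 79.8 kb, between the region 103 kb downstream and the 1 just past FGF3, and it holds FGF4 and FGF3. Widths of regions called in all 4 lists had a median of 891 bp, against 958 bp over the series, and KO-only regions 428 bp against 533 bp.

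By library, the window held 37 and 40 peaks in control replicates 1 and 2 and 49 and 50 in knockout replicates 1 and 2. Both knockouts were above both controls, at 49.5 ± 0.707 against 38.5 ± 2.12 (SD, n = 2 each, ratio 1.29, exact permutation p = 0.333). Per 10000 peaks of their list the values were 4.13 and 4.42 against 4.77 and 5.02. With lists of equal length the difference fell from 11 to 6 peaks, and it was also 6 with −log10 q of at least 5, where the groups overlapped (exact permutation p = 0.667). The length under peaks was 29.4 and 29.3 kb in the controls and 34.8 and 33.2 kb in the knockouts (p = 0.333 by the same exact test).

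The median percentile of the 31 regions of all 4 lists was 58.4 and 65.0 in the controls and 68.2 and 73.2 in the knockouts, a difference of 9.06 points (exact permutation p = 0.333). Over all such regions of the series the medians were 64.3, 64.8, 68.7 and 67.1. With −log10 q of at least 5 the window's difference was -0.20, so it did not hold among stronger peaks. With lists of equal length it was 1.55 (p = 1 by the same exact test) and ranked by fold 2.80 (exact permutation p = 0.667), with overlapping groups in both. By bases, the control lists shared more within the window (Jaccard index 0.726) than over the series (0.641), and the knockout lists shared 0.602 against 0.597. The 4 pairs across genotypes shared 0.594 to 0.615 in the window and 0.549 to 0.580 over the series.

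The windows of the same reach around CCND2 and CCND3, the other D-type cyclins, gave a measure of how far CCND1 differs. The CCND2 window held 28 regions and the CCND3 window 71. Per 10000 peaks, CCND2 had 1.45 and 2.10 in the controls and 2.04 and 1.71 in the knockouts, and CCND3 had 5.92 and 5.75 against 5.84 and 5.73, with overlapping groups at CCND2 (exact permutation p = 1) and at CCND3 (p = 0.667 by the same exact test). KO-only and WT-only regions numbered 1 and 0 at CCND2 and 5 and 1 at CCND3. Without that scaling, both knockouts had more peaks than both controls at CCND3 too, at 60 and 57 against 53 and 52. The length under peaks at CCND3 was also higher in both, at 39.5 and 37.9 kb against 37.0 and 36.6 kb. Whether the loci differ in their response was not tested.

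**Figure D5:**
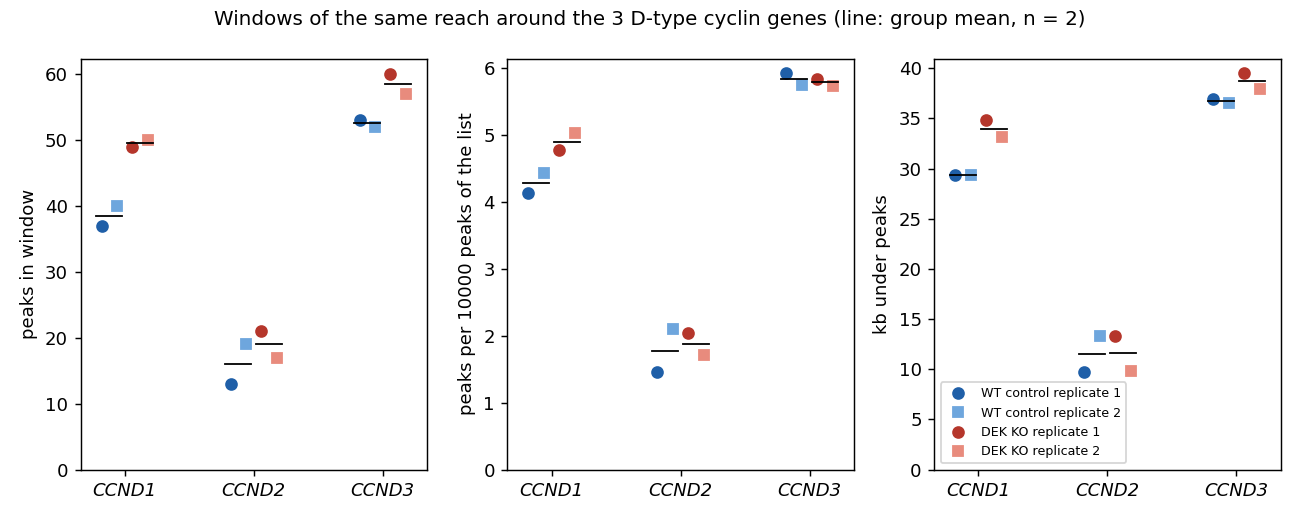
Peaks, peaks per 10000 of the list and kb under peaks in the windows around CCND1, CCND2 and CCND3. Points are libraries, coloured as controls (blue) and knockouts (red), and lines are group means of 2. At CCND1 both knockouts lie above both controls in all 3 panels, and at CCND3 they do so in peaks and in kb under peaks. The groups overlap in peaks per 10000 at CCND2 and CCND3.

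CCND2, like CCND1, had no region over its start, and its nearest region of all 4 lists (chromosome 12, 4276676 to 4277312) began 2.91 kb after the start of its span, at 55.9, 47.7, 60.8 and 38.8. CCND3 had a region of all 4 lists 260 bp beyond its end of higher coordinate (chromosome 6, 42050295 to 42051112), at 94.3, 89.0, 92.7 and 86.6. Among windows of the same reach around all 19974 protein-coding genes, the median held 56 regions and 3 KO-only regions, and 7.63% of genes had at least 7 KO-only regions. The median window held 1 WT-only region and 35.2% of windows held none. Neighbouring genes share regions, and the limit of 7 was taken from the count at CCND1 after it was seen.

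Partners of cyclin D1 elsewhere in the genome were described by the regions at the ends of their genes. Of 17 genes of the pathway (the other D-type cyclins, CDK4 and CDK6, their inhibitors, the retinoblastoma family and E2F1, E2F2 and E2F3), 13 had a region called in all 4 lists within 1 kb of an end, 1 had a KO-only region there, 0 were WT-only, and 3 genes had none. Over all protein-coding genes, 60% had a region of all 4 lists there, 1.83% a KO-only region and 30.8% none. CDK4, the kinase that cyclin D1 activates, had 95.8, 95.1, 92.5 and 93.7, and CDKN2C, an inhibitor of CDK4 and CDK6, had 96.5, 96.3, 92.6 and 94.2. At both, each knockout value lay below both controls, a pattern that 19.2% of regions of all 4 lists showed over the series. RB1, the retinoblastoma gene, had 89.5, 85.5, 84.4 and 88.4, with overlapping groups. The groups also overlapped at the end regions of all 4 lists at CCND3, CDKN1B, CDKN2D, RBL1, RBL2, E2F1, E2F2 and E2F3.

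CDK6 had a weaker region at its end of higher coordinate, at 37.8 and 42.6 in the controls and 24.0 and 17.6 in the knockouts, lower in both. CDKN1A, an inhibitor of cyclin-dependent kinases induced by p53, was higher in both at its end of higher coordinate, at 19.3 and 8.84 against 27.3 and 28.3. CDKN1A is transcribed toward higher coordinates and CDK6 toward lower ones, so the CDKN1A region lay where the gene ends and the CDK6 region where it begins. The start of CDKN1A in the promoter table lay under a region of all 4 lists, whose percentiles are not given here. The KO-only region was at CDKN1C, another such inhibitor, at 14.6 and 1.12. CDKN2A and CDKN2B, inhibitors of CDK4 and CDK6, had no region within their spans or at their ends in any list, and CCND2 was the third gene with none at its ends. Copy number was not measured, so the missing peaks at CDKN2A and CDKN2B do not tell closed DNA from lost DNA.

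The lists held 89563 and 90409 peaks in the controls and 102760 and 99508 in the knockouts on chromosomes 1 to 22 and X. DEK itself had a region of all 4 lists at its end of higher coordinate, which does not check the knockout, since small edits leave the gene in place. Of genes looked up to check the cell line, PAX8, a kidney lineage factor, and VIM and KRT18 had regions of all 4 lists at an end, whereas ALB, PTPRC and CDH5, of liver, blood and endothelium, had none at either end. CA9, a target of hypoxia-inducible factor in such tumours, had none either. Inside their spans, PTPRC held 8 regions, 3 of them called in all 4 lists, and CDH5 held 2, 1 of them called in all 4. ALB and CA9 held none.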

How the data were processed

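Each library had 1 narrowPeak list, made by the authors per library and not on pooled samples. Tools listed in the submitters' processing notes are MACS2 2.2.7.1, Bowtie2 2.2.5, cutadapt 1.18, Picard 2.26.9, SAMtools 1.7, deepTools 3.5.1, DiffBind 3.6.5 and ChIPseeker 1.32.1, with build GRCh38. The extraction text in the labels describes RNA, and the sources used here do not give the ATAC library preparation, any transposase shift or the caller's settings. The deposited columns are a score (10 times −log10 q), a fold ratio, −log10 p, −log10 q and a summit offset, another whole number, in bp, and all belong to 1 list each. Between 135 and 167 peaks per list outside chromosomes 1 to 22 and X were left out.

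Peaks were merged at 1 bp of overlap, and a region took the percentile of its strongest peak in each list. Pileup k and background b at each summit were solved from fold = (k + 1)/(b + 1) and the Poisson upper tail, the form in which MACS2 writes them. Read depth is not in the files. The constant background is no direct measure of it, since the caller's settings are not given. Library values were compared by the exact permutation test over 6 assignments (two-sided). Merging and solving were tested on simulated data. Gene positions came from RefSeq (GRCh38.p14), where all genes looked up were found. The regions named with values were those in CCND1, the one-genotype regions, the 8 strongest others, the 4 largest rises and falls without overlap, and the first and last of the window. The locus, lists and rules were chosen with earlier results of these data known. Alternatives were other reaches, overlap of 50%, −log10 q of at least 5, equal list lengths, rank by fold, leaving out each library, and a replicate block. Python 3.11.15, numpy 2.4.6, pandas 2.3.3 and scipy 1.17.1 were used. A gene looked up to check the cell line is not reported here.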

Additional observations from a re-analysis of the deposited data

How the results depend on the processing

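The exact permutation test could not pass 0.05 with 2 libraries per group, so the alternatives bear on sizes and directions alone. The differences in peaks, in peaks per 10000 and in length under peaks kept their direction under every alternative run, with ranges of 9.5 to 12.5 peaks, 0.472 to 0.765 per 10000 and 3.82 to 5.46 kb when each library was left out in turn. They were smaller with lists of equal length (6 peaks, 2.82 kb, though 0.670 per 10000) and with −log10 q of at least 5 (6 peaks, 0.433 per 10000, 3.04 kb), where the groups overlapped in peaks and in peaks per 10000. The median percentile of regions called in all lists kept its direction (5.78 to 12.3 without each library) except with −log10 q of at least 5, where it was -0.20, and the cause was not tested. It was 1.55 with lists of equal length and 2.80 by fold, with overlapping groups. The region nearest the CCND1 start kept its direction in all alternatives. With lists of equal length its difference was 8.01 points and the groups overlapped. By fold, the LTO1 region turned to -3.80 and the region 226 kb downstream to -1.44.

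KO-only regions numbered 2 of 33 at 200 kb and 13 of 137 at 1000 kb, against 6.26% over the series. With −log10 q of at least 5 they numbered 3 of 49, against 6.54%. Without 1 control library they numbered 7 (11.1% and 11.3%, against 9.86% and 9.61% over the series). Without 1 knockout library they numbered 14 or 15, since presence in 1 list is easier to meet. Those were 25% and 26.3%, against 17.2% and 17.3% over the series. WT-only regions numbered 1 at 1000 kb (2.57% over the series) and 1 with −log10 q of at least 5 (3.47%). Without a library they numbered 1 to 2, against 4.73% to 9.06% over the series. Regions of all lists with both knockout percentiles above the controls numbered 5 of 14 at 200 kb and 29 of 69 at 1000 kb, against 31.1% over the series. Without a library they numbered 14 to 19 of 31 to 33, against 42.9% to 45.7% over the series. Those below numbered 3 and 10 at the same reaches (19.2% over the series) and 8 by fold (19.3%). Without a library they numbered 6 to 11, against 27.7% to 34.9% over the series. Regions with higher background in both knockouts numbered 8 of 14 at 200 kb and 36 of 69 at 1000 kb, against 30.4% over the series. They numbered 19 to 23 without a library and 23 as multiples of the list's median background. The series share was not worked out for these last settings. All these background counts were chosen after seeing the data. Wider windows hold more regions, so these counts change by construction.

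Pairing the libraries by replicate number, as a replicate block, left the values as they were (11 peaks, 0.619 per 10000, 4.64 kb, 9.06 points) with an exact p of 0.5, the smallest that 2 pairs allow. Deviations of same-numbered libraries correlated at 0.178 over the 31 regions and 0.0124 over the series, so the numbers are not shown to pair samples. The planned percentile over the CCND1 start gave no value, as no list had a peak there. The lowest pileups called were 8 in the control lists and 7 in the knockout lists, which limits what absence from a list shows.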
